A study of Mus musculus with 8 samples.

Results

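The nuclear-encoded subunits of respiratory complexes I to IV were examined in the livers of db/db mice given AdGFP or AdNAMPT. The genes were chosen by name: 57 of the 41388 features in each deposited count table, of which 34 encode subunits of complex I, 4 of complex II, 9 of complex III and 10 of complex IV. All 57 were found, and 56 passed the filter on low counts, which asked for more than 1 CPM (counts scaled to the library total) in at least 3 libraries. The rule lists gene names and applies no threshold to measured values.

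Livers came from 4 AdGFP and 4 AdNAMPT animals, 1 library per mouse. All were db/db mice of the C57B/6J strain, which lack a working leptin receptor and become obese and diabetic. The titles give db/db for every sample, whereas the genotype label reads control for AdGFP and NAMPT overexpression for AdNAMPT. Littermates were randomised at 5 weeks of age and were 10 weeks old at sampling. Adenovirus was injected into the tail vein and carried NAMPT, an enzyme of NAD salvage, in AdNAMPT and a fluorescent marker, GFP, in AdGFP, and the series design gives 4 to 5 weeks of overexpression. The paper instead gives days, not weeks, between adenovirus delivery and assay, so the length of exposure is uncertain. No group without virus is among these samples. The sources used here do not give the promoter that drives NAMPT in the vector, and whole liver was sequenced, so that fewer cells of a type and less RNA per cell cannot be told apart.

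The respiratory chain sits in the inner mitochondrial membrane. Complex I takes electrons from NADH and complex II from succinate; both pass them to ubiquinone, complex III hands them on to cytochrome c, and complex IV reduces oxygen. Complexes I, III and IV pump protons, and the ATP synthase uses that gradient. NAMPT makes the precursor of NAD, whose reduced form is the substrate of complex I, and hepatocytes rely on the chain for fatty acid oxidation, urea synthesis and gluconeogenesis. Most subunits are encoded in the nucleus and a few, all of them in complexes I, III and IV and the ATP synthase, in mitochondrial DNA. Core subunits carry the redox centres or the catalytic sites, and supernumerary subunits surround them.

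Libraries held 12006713 to 19879814 counts. The hepatocyte markers Alb, Apoa1, Ttr, Hnf4a, Cps1, Serpina1a, Cyp2e1 and Ass1 were abundant in every library, summing to 101978 to 126095 scaled CPM in AdGFP and 90522 to 118495 in AdNAMPT; scaled CPM are CPM on a library size adjusted by TMM, a factor for composition. Where 4 values are listed for a group, they are replicates 1, 2, 3 and 4 in that order. The transferred gene did not separate the groups. Nampt was at 107, 149, 159.5 and 148 scaled CPM in AdGFP and at 144, 120.3, 172 and 168 in AdNAMPT (log2 fold change 0.08, SE 0.15; limma adjusted p 0.915). Every direction below therefore rests on the labels. AdNAMPT replicate 1 had the lowest weight in the fit, 0.440 against 0.811 to 1.41 in the other libraries. Ribosomal RNA took 1.77% to 2.63% of counts in AdGFP and 0.863% to 1.62% in AdNAMPT, and the noncoding RNA Gm42418 took 0.996% to 2.25% against 0.2001% to 0.233%; the part of these differences in the results below was not tested.

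Differences between the groups in transcripts of the respiratory complexes were small and lay on both sides of 0. None of the 56 tested genes was called by limma at an adjusted p of 0.05, where 34 of 12270 tested genes were (0.277%, of which 0.0163% higher and 0.261% lower). At an unadjusted p under 0.05, 0 were higher and 1 was lower in AdNAMPT (Cyc1), against 4.65% of all tested genes higher and 5.04% lower (9.69% in all). The other tests called 0 as well at the adjusted threshold, and at an unadjusted p under 0.05 the counts were 0 by edgeR's quasi-likelihood test, 0 by edgeR's exact test and 0 by the DESeq2 Wald test. The median log2 fold change was -0.003, with 26 genes above and 30 below 0, and the median over all tested genes was 0.002. No gene separated the groups completely on scaled CPM, against 4.79% of all tested genes (2.09% higher and 2.7% lower), although leaving out a single library left up to 3 genes without overlap (Ndufa11, Ndufb10 and Sdhd, lower, without AdGFP replicate 2, where 5.08% of all tested genes were lower without overlap and 3.88% higher).

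These comparisons were more precise than those of most genes. The 95% confidence interval lay within a 1.25-fold change in either direction for 51 of 56 genes (91.1%), against 37.4% of all tested genes. The interval was 0.365 wide on the log2 scale at the median, against 0.524 over all tested genes and 0.380 over the 4982 tested genes between 20 and 700 scaled CPM. The 5 others were Cox7c, Cyc1, Ndufa1, Ndufb4 and Uqcrq. Uqcrq, a small subunit of complex III, was the only one whose interval went past 1.5-fold. The intervals of all 56 stayed within 2-fold, and those of 0 of 56 stayed within 1.1-fold, so that changes of a few percent could not be told from 0 in these libraries.

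**Figure D1:**
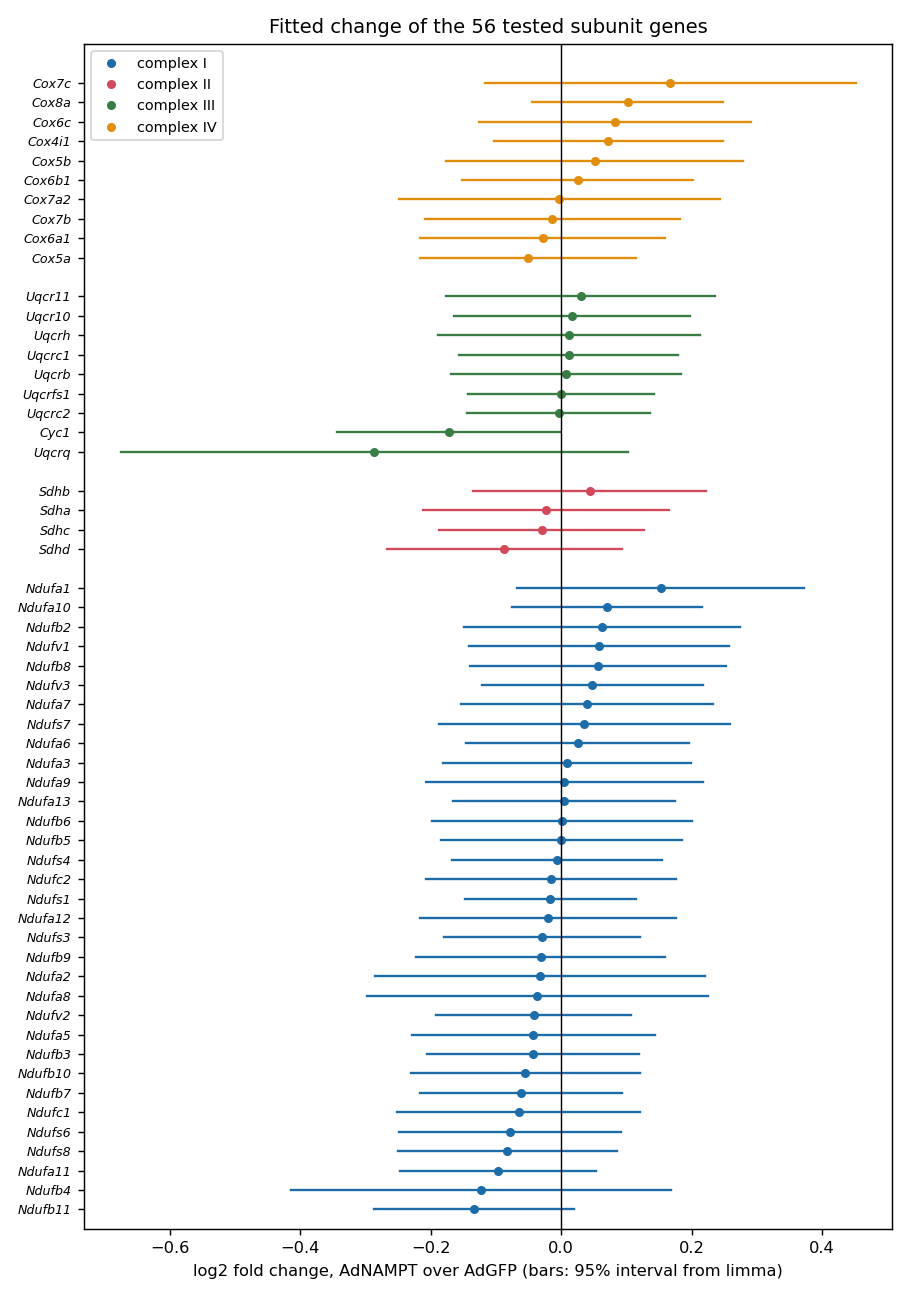
Fitted log2 fold change of AdNAMPT over AdGFP for each of the 56 tested subunit genes, coloured by complex; points are limma estimates and bars their 95% confidence intervals. Estimates run from -0.29 (Uqcrq) to 0.17 (Cox7c), and the bar of Cyc1 alone ends just short of 0.

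Summed over the 57 genes, the level was 10983, 10729, 11747 and 11199.5 scaled CPM in AdGFP and 11141, 11446, 11465 and 10484 in AdNAMPT. The means were 11164.5 ± 433 and 11134 ± 458 (SD, n = 4 each), a difference of -0.272%. AdGFP replicate 3 was the highest library and AdNAMPT replicate 4 the lowest, so the widest gap lay across the groups in the direction of a lower AdNAMPT level, while the other 6 libraries interleaved. This sum depended on scaling, because the TMM factors were 0.947 to 0.977 in AdGFP and 1.01 to 1.05 in AdNAMPT. On the deposited CPM, which use the library total alone, the difference was 7.11%, and 49 of the 56 tested genes lay above 0 with a median of 0.08, beside a median of 0.09 over all tested genes. The groups did not overlap for 3 members on that scale, all higher (Ndufa10, Ndufs1 and Cox8a), against 7.36% of all tested genes higher and 0.856% lower. In the fit with library size only 3 genes reached an unadjusted p under 0.05 and all were higher (Ndufa1, Ndufa10 and Cox8a), where 11.4% of all tested genes were higher and 1.74% lower.

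Ndufs5, a supernumerary subunit of complex I, was the gene that failed the filter. Its reads numbered 13, 6, 13 and 13 in the AdGFP libraries and 11, 17, 18 and 8 in the AdNAMPT libraries, 99 in all. An annotated copy of its messenger RNA, the processed pseudogene BC002163 (ENSMUSG00000081824, GRCm38, chr16:42955631-42955949), took 404, 277, 435 and 352 reads in AdGFP and 281, 390, 545 and 457 in AdNAMPT. Ndufs5 (ENSMUSG00000028648, chr4:123712710-123718202) thus held 1.72% to 4.18% of the reads of the pair in each library. Over the 318 coding bases that could be compared, the copy is identical at 316 and differs by T81C and A105G, with positions counted from the A of the start codon and the base of Ndufs5 given first. The stretch that holds both differences is shown because, within the coding part, it is where 50-base reads can tell the loci apart; the differing bases are in capitals, both lines read 5′ to 3′ along the coding strand, and they were taken from the GENCODE M21 transcripts (GRCm38; Ndufs5 at chr4:123715963-123716011, minus strand, coding exon; BC002163 at chr16:42955699-42955747, plus strand).
Ndufs5: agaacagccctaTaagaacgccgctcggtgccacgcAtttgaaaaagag
BC002163: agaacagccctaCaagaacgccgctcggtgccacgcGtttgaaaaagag

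Neither locus passed the test. Without the filter, Ndufs5 had a log2 fold change of 0.05 (SE 0.35; limma adjusted p 0.970) and that of BC002163 was -0.02 (SE 0.11; limma adjusted p 0.963). The level of BC002163 averaged 26.1 ± 3.34 scaled CPM over the AdGFP and 25.7 ± 2.02 over the AdNAMPT libraries (SD, n = 4 each). The count on Ndufs5 is therefore uncertain as a level of that subunit, since the deposited counts hold uniquely aligned reads only and near-identical copies can split or lose them. Whether reads of one locus were counted on the other was not tested.

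**Figure D2:**
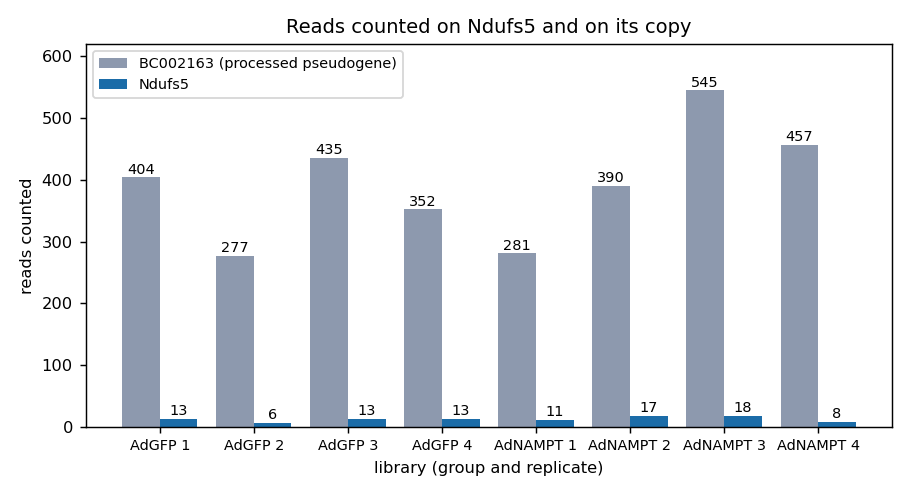
Reads counted in each of the 8 libraries on Ndufs5 (blue) and on the processed pseudogene BC002163 (grey), with the count above each bar. The copy holds 277 to 545 reads and Ndufs5 6 to 18 in every library of both groups.

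Other members also share sequence. In the annotated transcripts, every 50-base window was unique to the gene for 26 of the 57 members, and fewer than 75% of windows were unique for 10. Among features of the deposited count tables, pseudogenes at another locus shared windows with 17 members. BC002163 was the only one of those pseudogenes with more reads than its member. Some members, such as Ndufb9, shared windows with a gene outside those features, for which no count was at hand. Cox7c had the lowest share, 47.0%, and shared windows with Gm10012 and Gm12338, on which 7 and 24 reads were counted over all libraries. Exons of 14 members overlap another feature, for 13 of them on the opposite strand; the sources used here do not say whether counting used strand, so their levels are less certain.

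Promoters were read next, since factors such as NRF1, GABP, YY1, ERRα and CREB are known to act on respiratory genes. RefSeq promoters (GRCm38.p6, 250 bases before to 50 after the start) were on hand for 47 of the 57 members, and 5 motifs were searched as exact letters on both strands. A gene was counted once if any of its promoter entries matched. GCGCANGCG, the NRF1 type, was found in 13 of 47 members (27.7%). It was in 15.3% of 9440 other tested genes with a promoter and 7.03% of all 27025 genes with a promoter. CCGGAAG, the core bound by GABP and other ETS factors, was in 11 (23.4%, against 20.3% and 9.93%). AAGATGGCG of YY1 was in 5 (10.6%, against 3.63% and 1.64%), and in each it began 22 to 35 bases after the start. All 5 were complex I genes (Ndufa9, Ndufc1, Ndufs4, Ndufs6 and Ndufs7), which make up 34 of the 57 members. AAGGTCA of ERR was in 4 (8.51%, against 4.26% and 5.38%) and the cAMP-response element TGACGTCA in 4 (8.51%, against 3.52% and 2.03%). At least 1 motif was present in 28 members and at least 2 in 8, and no share over other genes was taken for these counts. These are matches of letters in a short window and no more. Matches to at least 2 motifs began ahead of the start in 7 members (Cox6a1, Ndufa11, Ndufb2, Ndufb4, Ndufs5, Sdhd and Uqcr11). Stretches of 3 of them, picked as examples after the matches were seen, are printed with the matches ahead of the start in capitals. They read 5′ to 3′ on the gene's strand, with Cox6a1 at chr5:115348959-115349145 (minus), Ndufa11 at chr17:56717579-56717736 (plus) and Sdhd at chr9:50603864-50603953 (minus). CTTCCGG is CCGGAAG read on the other strand, and GCGCATGCGC holds the NRF1 letters on both strands, overlapping by all but 1 base.
Cox6a1: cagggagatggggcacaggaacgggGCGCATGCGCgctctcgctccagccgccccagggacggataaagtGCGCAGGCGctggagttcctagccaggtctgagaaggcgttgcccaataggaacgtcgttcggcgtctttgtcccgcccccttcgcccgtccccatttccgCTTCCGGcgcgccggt
Ndufa11: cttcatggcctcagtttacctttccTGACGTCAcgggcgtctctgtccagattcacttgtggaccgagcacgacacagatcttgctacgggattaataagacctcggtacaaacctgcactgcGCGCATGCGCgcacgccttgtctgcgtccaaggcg
Sdhd: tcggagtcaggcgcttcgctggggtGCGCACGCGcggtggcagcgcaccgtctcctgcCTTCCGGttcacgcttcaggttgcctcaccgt

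In complex I, 14 of the 33 tested genes lay above 0 and 19 below, with a median log2 fold change of -0.02 and a range from -0.13 to 0.15. None was called, and none reached an unadjusted p under 0.05. For the core subunits, intervals reached to both sides of a fold of 1. Ndufv1, which binds NADH and its flavin, was at 231, 209, 245 and 267 scaled CPM in AdGFP and at 244, 272, 243 and 229 in AdNAMPT, with the groups interleaved (fold 1.04, 95% confidence interval 0.906 to 1.19; limma adjusted p 0.884). Ndufs1, the large iron-sulfur subunit, was at 184, 189, 189 and 192 and at 190.4, 188, 179.8 and 189. It had the smallest spread within groups of all 56 genes, an SD of 0.03 on the log2 scale, and its interval was 0.903 to 1.08 around a fold of 0.988. Ndufs7, an iron-sulfur subunit next to the ubiquinone site, was at 73.0, 70.2, 76.3 and 89.6 and at 92.6, 72.8, 89.8 and 75.6. Its highest AdGFP library lay among the AdNAMPT values (fold 1.02, 0.878 to 1.196). Ndufs8, also an iron-sulfur subunit, was at 146, 126, 141 and 139 and at 113, 136, 125 and 141, with AdNAMPT replicates 2 and 4 inside the AdGFP range and replicates 1 and 3 under it (log2 fold change -0.08, SE 0.08; limma adjusted p 0.773).

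Among the supernumerary subunits of complex I, Ndufb11 had the smallest p below 0. It was at 148, 146, 157 and 139.6 scaled CPM in AdGFP and at 143, 131, 143 and 126 in AdNAMPT. The AdNAMPT replicates 2 and 4 lay below every AdGFP library and the other 2 inside their range (log2 fold change -0.13, SE 0.07; limma adjusted p 0.579). Part of its exons overlaps Rbm10 on the opposite strand. Ndufa1, a small subunit of the membrane arm encoded on the X chromosome, had the largest estimate above 0 in the complex. It was at 104, 106, 121 and 107 and at 138, 127, 133 and 97.9, so that AdNAMPT replicates 1 to 3 lay above every AdGFP library and replicate 4 below them all. The estimate was a log2 fold change of 0.15 (SE 0.10; limma adjusted p 0.669), and 0.25 without AdNAMPT replicate 4 (unadjusted p 0.00961, limma adjusted p 0.327).

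Ndufa10 was at 177, 192, 185 and 193 and at 188, 196, 188 and 209, with AdNAMPT replicate 4 the highest library (log2 fold change 0.07, SE 0.07; limma adjusted p 0.777). Ndufa11, needed for a stable membrane arm, was at 71.3, 60.9, 68.2 and 69.4 and at 63.9, 66.1, 60.5 and 63.2. Apart from AdGFP replicate 2 the AdGFP libraries were above all AdNAMPT libraries, and the difference did not pass the test (log2 fold change -0.10, SE 0.07; limma adjusted p 0.697). Ndufb8 was at 191, 194, 230.4 and 197 and at 181, 221, 226 and 198, and Ndufb5 at 105, 106, 114 and 98.3 and at 114, 111, 110.5 and 90.5. For Ndufb8 AdGFP replicate 3 stood above its group, and for Ndufb5 AdNAMPT replicate 4 stood below. Their folds were 1.04 (0.908 to 1.19) and 1.0002 (0.880 to 1.137). The other 22 tested subunits of complex I, apart from Ndufb9 below, had folds between 0.918 (Ndufb4) and 1.04 (Ndufb2).

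Complex II, which also serves the citrate cycle, was represented by all of its 4 genes. Sdha, the flavoprotein, was at 595, 704, 629 and 702 scaled CPM in AdGFP and at 617, 684, 634 and 598 in AdNAMPT (fold 0.984, 95% confidence interval 0.863 to 1.12; limma adjusted p 0.958). Sdhb, the iron-sulfur subunit, was at 476, 460.0, 526 and 511 and at 432, 534, 505 and 528 (fold 1.03, 0.911 to 1.17). In both the groups interleaved. The membrane anchor Sdhd was at 324, 273, 337 and 322 and at 283, 319, 294 and 282. All of its AdNAMPT libraries lay below 3 of the AdGFP libraries and above AdGFP replicate 2 (log2 fold change -0.09, SE 0.08; limma adjusted p 0.778). Sdhc, the other anchor, was at 288, 274, 308 and 306 and at 257, 298, 292 and 293, with AdNAMPT replicate 1 alone under the AdGFP range (fold 0.979, 0.878 to 1.09). AdNAMPT replicate 1 was low for the whole complex: each of the 4 genes was under its own mean there.

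In complex III, 5 of 9 genes lay above 0 and 4 below, with a median log2 fold change of 0.01. Cyc1 (chr15:76343523-76345934), the cytochrome c1 that passes electrons to cytochrome c, was the only member to reach an unadjusted p under 0.05. It was at 223, 242, 230.4 and 249.9 scaled CPM in AdGFP and at 238, 209, 217 and 188 in AdNAMPT. AdNAMPT replicates 2, 3 and 4 lay below every AdGFP library and replicate 1 among them. The log2 fold change was -0.17 (SE 0.08; unadjusted p 0.0486, limma adjusted p 0.513), a fold of 0.887 with an interval of 0.788 to 0.999. Its unadjusted p ranged from 0.00308 with a GC correction (log2 fold change -0.29) to 0.319 with library size only (-0.09), and its adjusted p from 0.302 to 0.956 over the alternatives, so it is not reported as changed.

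Uqcrq (chr11:53427922-53430831) was the most variable member, with an SD within groups of 0.34 on the log2 scale. It was at 120.2, 222, 127 and 143 scaled CPM in AdGFP and at 124, 122, 137 and 89.3 in AdNAMPT. AdGFP replicate 2 was far above the other libraries and AdNAMPT replicate 4 far below them, and the remaining 6 interleaved. Its log2 fold change of -0.29 (SE 0.18; limma adjusted p 0.646) was -0.15 without AdGFP replicate 2 and -0.18 without AdNAMPT replicate 4. AdGFP replicate 2 was also the library with the most ribosomal RNA and the most mitochondrially encoded messenger RNA, and their part in this value was not tested. Uqcrfs1, the Rieske iron-sulfur protein, was at 298, 283, 302 and 295 and at 326, 295, 289.9 and 287 (fold 0.9996, 0.905 to 1.104). Its groups interleaved with AdNAMPT replicate 1 on top. Uqcr10 was at 389, 334, 409 and 387 and at 393, 410.1, 389.6 and 353 (fold 1.01, 0.892 to 1.15), and Uqcrb at 60.4, 69.1, 66.5 and 57.4 and at 70.2, 59.4, 65.5 and 61.9 (fold 1.01, 0.890 to 1.14). Uqcrc1 and Uqcrc2, large subunits classed here as supernumerary, and Uqcrh and Uqcr11 had folds between 0.997 and 1.02.

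Complex IV had a median log2 fold change of 0.04, with 6 of 10 genes above 0 and 4 below. That median turned on single libraries, at -0.008 without AdGFP replicate 2, 0.02 without AdGFP replicate 4, 0.09 without AdGFP replicate 3 and 0.07 without AdNAMPT replicate 4. None passed either threshold. Cox4i1, the ubiquitous form of subunit IV, was at 379, 375, 424 and 408 scaled CPM in AdGFP and at 450.1, 430.1, 434 and 372 in AdNAMPT. AdNAMPT replicates 1 to 3 lay above every AdGFP library and replicate 4 below them all (log2 fold change 0.07, SE 0.08; limma adjusted p 0.820). Cox8a followed another order, at 327, 349.8, 346 and 327 and at 368, 368, 339 and 366, with AdNAMPT replicate 3 the only AdNAMPT library inside the AdGFP range (log2 fold change 0.10, SE 0.07; limma adjusted p 0.665). Cox5a, a matrix-side subunit, was at 137, 138, 149 and 156 and at 156, 143, 141 and 128 (fold 0.965, 0.861 to 1.08), and the groups interleaved.

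Cox6c was at 274, 305, 294 and 244 and at 312, 289.6, 322 and 256 (log2 fold change 0.08, SE 0.09; limma adjusted p 0.83), with replicate 4 the lowest of both groups. Cox7c had the largest estimate above 0 of all members and one of the lowest counts. It was at 17.1, 24.0, 19.7 and 16.4 and at 26.8, 22.4, 18.2 and 19.97, and the groups overlapped over most of their range (log2 fold change 0.17, SE 0.13; limma adjusted p 0.729). The other 5 genes of complex IV, Cox5b, Cox6a1, Cox6b1, Cox7a2 and Cox7b, had folds between 0.980 and 1.04. Summed by complex, the differences were -0.593% for complex I, -2.61% for complex II, -1.62% for complex III and 3.06% for complex IV on scaled CPM, with the groups overlapping in each complex. On the deposited CPM they were 6.75%, 4.53%, 5.69% and 10.8%, so that the direction for complexes I to III turned with the scaling.

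The members moved together in some libraries and were split more evenly in others. Relative to each gene's own mean, the median log2 deviation of the 56 genes was -0.01, -0.08, 0.09 and -0.003 in AdGFP and 0.01, 0.03, 0.04 and -0.11 in AdNAMPT. AdGFP replicate 3 was above the gene's own mean for 48 of 56 genes and was the highest library for 17. AdNAMPT replicate 4 was above it for 11 and was the lowest library for 21, and AdGFP replicate 2 was the lowest for 17. The split was more even in AdGFP replicates 1 and 4 (24 and 26 genes above) and AdNAMPT replicates 1 and 2 (30 and 35). The range between libraries within a group thus exceeded the difference between groups. The deviations differed by complex in AdNAMPT replicate 1, where 9 of 10 complex IV genes were above their mean and 0 of 4 complex II genes were. Some other lists shared these signs and others did not. Both the ATP synthase list and the cytosolic ribosomal protein list had median deviations of the members' sign in all 8 libraries. The latter was at -0.02, -0.10, 0.06 and -0.09 in AdGFP and 0.11, 0.06, 0.08 and -0.06 in AdNAMPT. Mitochondrial ribosomal proteins differed in sign in most libraries, at 0.03, 0.003, 0.06 and 0.002 in AdGFP and -0.05, -0.007, 0.0015 and -0.01 in AdNAMPT. The citrate cycle and mitochondrial genome lists also differed in sign in several libraries. For the ATP synthase the signs no longer matched in 1 library with a length correction and in 3 with a GC correction. For the cytosolic ribosomal proteins they no longer matched in AdGFP replicate 4 with either correction, nor in AdNAMPT replicate 1 with the GC correction. The pattern is given as a description, since these genes share libraries, a short length and a high level.

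**Figure D3:**
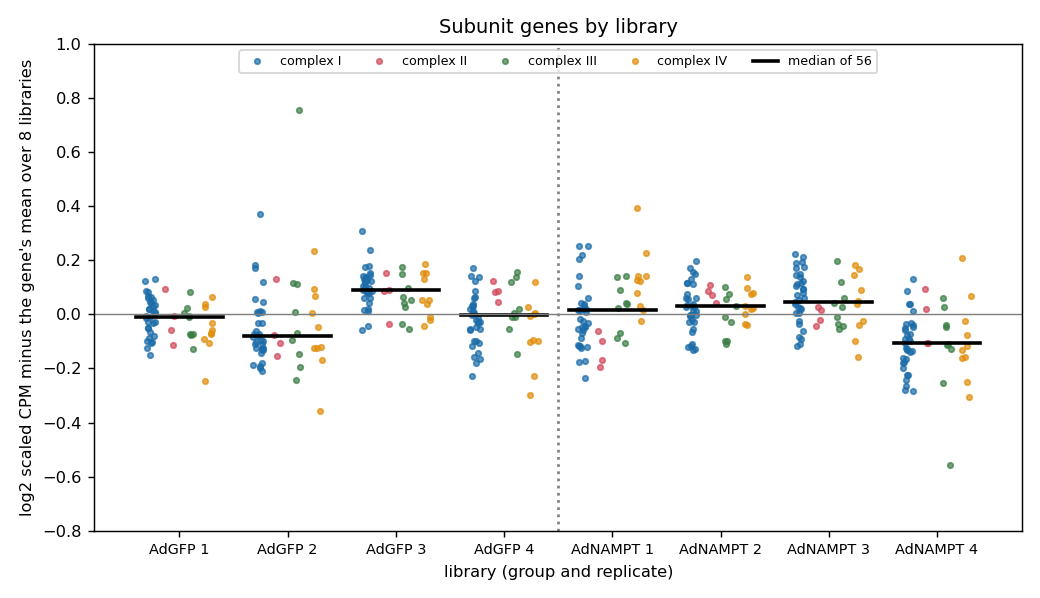
Log2 scaled CPM of each tested subunit gene minus its own mean over the 8 libraries, by library and coloured by complex; the black line is the median of the 56 genes. The lines of AdGFP replicate 3 (0.09) and AdNAMPT replicate 4 (-0.11) are the farthest from 0, and the lone point far above the rest in AdGFP replicate 2 is Uqcrq.

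As a set, the members are short and abundant genes. The median exonic length was 1240 bases, against 3727 over all tested genes, and the median level was 185 scaled CPM against 14.7. The GC content was alike, 50.6% against 49.4%. The within-group SD had a median of 0.12 on the log2 scale, against 0.17 over all tested genes and 0.13 over the 4982 genes between 20 and 700 scaled CPM. That band does not match the members in abundance, since its median level was 46.1 scaled CPM. The 57 genes lie on 18 chromosomes. Together they took 0.988% to 1.12% of counts in AdGFP and 1.05% to 1.19% in AdNAMPT.

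Levels of different subunits were compared per length, as RPKM (CPM per kilobase of exon), averaged over all 8 libraries. Uqcr10 was the highest member at 645 ± 58.8 RPKM (SD, n = 8), followed by Cox8a at 629 ± 49.5 and Ndufb9 at 564 ± 53.4. The intervals of 1 SD around these 3 means overlapped. Ndufb9, a subunit of the membrane arm, was at 389, 327, 407 and 381 scaled CPM in AdGFP and at 381, 388, 386 and 329.7 in AdNAMPT, with 1 low library in each group (fold 0.978, 95% confidence interval 0.857 to 1.12). Sdhd led complex II at 232 ± 18.1 RPKM, and Sdhb at 218 ± 18.7 was within the spread of Sdhd. The lowest were Ndufs5 at 0.944 ± 0.290 in complex I, Sdhc at 87.5 ± 5.51 in complex II, Uqcrb at 71.6 ± 6.43 in complex III (with Uqcrq at 72.3 ± 18.2 within its spread) and Cox7c at 17.9 ± 3.42 in complex IV. Within complexes, the intervals of 1 SD around the mean overlapped for 25 of 33 neighbouring pairs in complex I, 1 of 3 in complex II, 4 of 8 in complex III and 5 of 9 in complex IV. Subunits that occur once per complex thus differed widely in counted reads per length, while intervals of neighbours in the order often overlapped. Overlap of these intervals takes no account of both genes being measured in the same 8 libraries. It therefore does not show that neighbours had the same level. These levels were not corrected for sequence shared with other genes. The share of unique 50-base windows was 68.9% for Ndufs5, 99.9% for Sdhc, 56.6% for Uqcrb and 47.0% for Cox7c. Its part in the order was not tested.

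That order rested on the length used. The deposited RPKM divide by all bases that any annotated transcript of the gene covers, which came to 8086 for Ndufs1 and 4522 for Ndufb7, where the principal transcripts have 2661 and 623. Per kilobase of the principal transcript, a choice made after seeing the data, Ndufb7 moved from 31.4 to 228 and Cox6c from 79.2 to 383, Sdhb led complex II at 427, and Uqcrq was the lowest of complex III at 87.0 with Uqcrb at 117. Uqcr10 remained the highest at 868 and Ndufs5 the lowest at 1.19. Ndufb2 stayed low on both, at 3.92 and 5.05, but both of its lengths were long, 5628 and 4371 bases. Among transcripts ranked equally as principal the longest was taken, so its low level per length also rests on that choice.

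**Figure D4:**
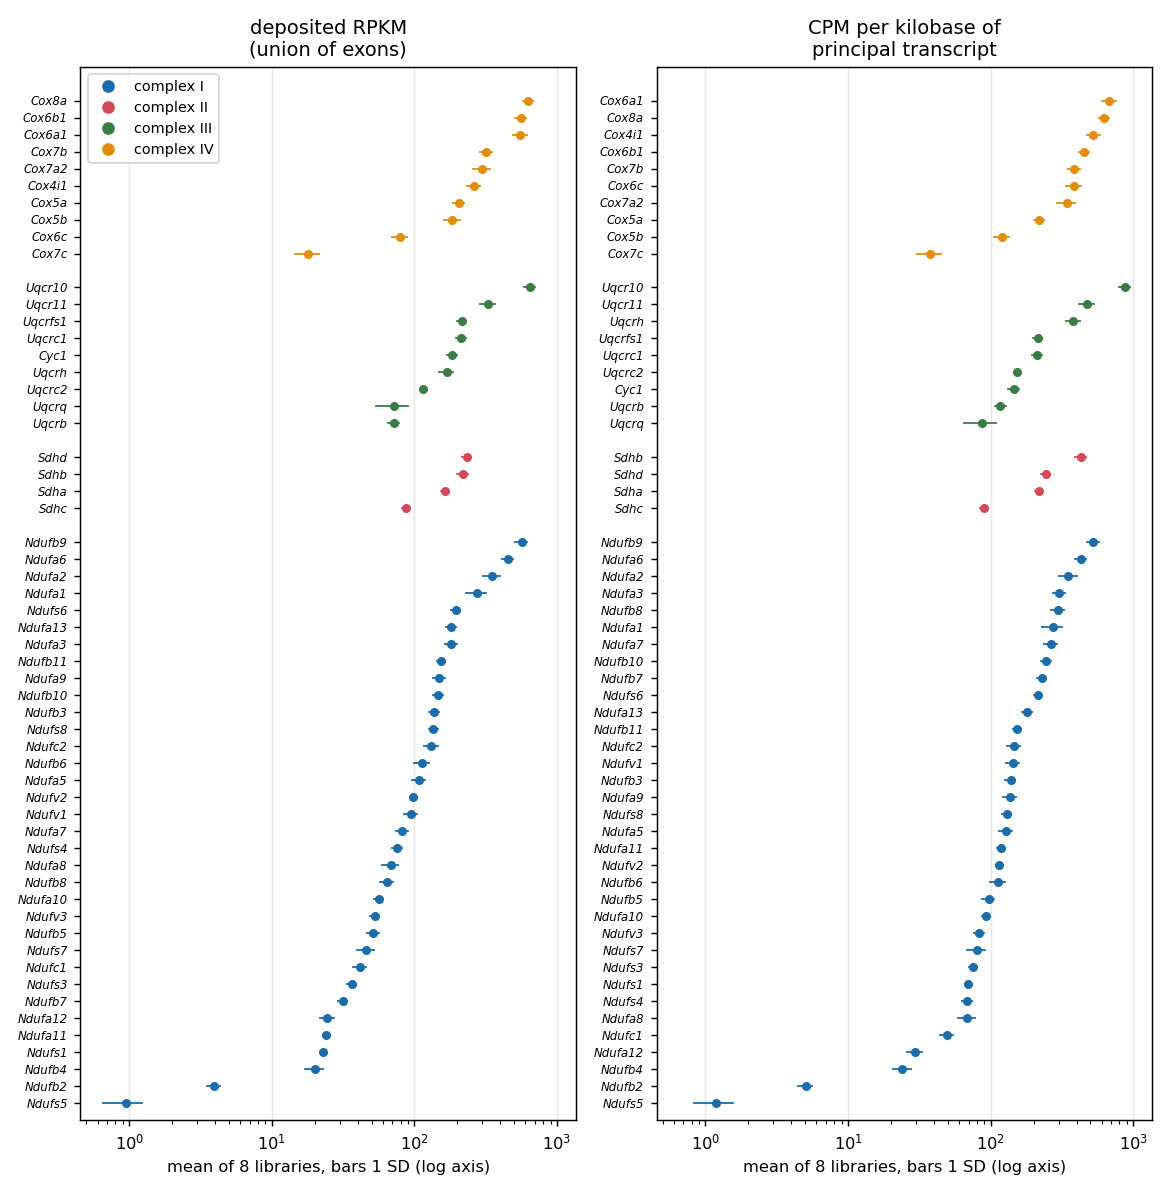
Level of each of the 57 subunit genes per exonic length, on a log axis and sorted within complexes; points are means of the 8 libraries and bars 1 SD. The left panel uses the deposited RPKM and the right panel CPM per kilobase of the principal transcript, and Ndufs5 and Ndufb2 are at the low end of both.

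Several complex IV subunits have a second form that is known from heart and skeletal muscle. The forms among the members dominated in these livers: Cox6a1 was at 551 RPKM and Cox6a2 at 0.117, Cox8a at 629 and Cox8b at 0.104, Cox7a2 at 299 and Cox7a1 at 4.33, and Cox4i1 at 259.7 and Cox4i2, the lung form, at 0.0902. The muscle forms Cox6a2 and Cox8b had at most 3 and 2 reads in any library, at or under the 3 counts taken as the smallest detectable amount, and Ucp1, which defines brown fat, had 0 reads in every library.

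The mitochondrially encoded subunits did not lie around 0 as the nuclear ones did. Of 13 such genes, 6 (mt-Nd3, mt-Nd4l, mt-Co2, mt-Co3, mt-Atp6 and mt-Atp8) are listed at 0 in every library, and all 7 that were counted lay below 0, with a median log2 fold change of -0.37 beside -0.003 for the nuclear members. Estimates of the 7 ran from -0.61 (mt-Cytb) to -0.03 (mt-Nd1), and mt-Co1, the most abundant of them, was at -0.15. None of the 7 was called by limma, and 4 had an unadjusted p under 0.05 (mt-Nd2, mt-Nd4, mt-Nd5 and mt-Cytb). The other tests also called 0, with 2 lower at that unadjusted threshold by edgeR's quasi-likelihood test, 3 by its exact test and 4 by DESeq2. mt-Cytb, the cytochrome b of complex III, was at 2856, 4583, 2489 and 3126 scaled CPM in AdGFP and at 2695, 2092, 1838 and 1768 in AdNAMPT. AdNAMPT replicates 2 to 4 were below every AdGFP library and replicate 1 above the lowest of them (log2 fold change -0.61, SE 0.17; limma adjusted p 0.326). mt-Nd5 was at 1079, 1408, 942 and 1125 and at 1033, 764, 791 and 807 (log2 fold change -0.44, SE 0.12; limma adjusted p 0.318). AdGFP replicate 2 was the highest library for each of the 7 genes. Without it the median was -0.26 and 2 of the 7 had an unadjusted p under 0.05. Ribosomal RNA and Gm42418 were also higher in AdGFP, as given above, and the sources differ on how RNA was selected (Ribo-Zero in the labels, poly-A in the methods), so the part of RNA selection in this difference was not tested. The difference between nuclear and mitochondrial members was not tested either.

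No other gene of the pathway was called by limma, edgeR or DESeq2. Of 12 further subunit genes of the same complexes 6 were tested, with 1 above 0 and 5 below (median log2 fold change -0.01) and 0 at an unadjusted p under 0.05; among them Ndufa4 was at 1085 RPKM, higher than every member. Of 18 genes of the ATP synthase, 4 lay above 0 and 14 below (median log2 fold change -0.02), and 0 had an unadjusted p under 0.05. Of 42 tested assembly factors, 11 lay above 0 and 31 below (median -0.03), with 1 higher and 3 lower at that threshold (Cox19 higher; Ndufaf1, Ndufaf7 and Sdhaf3 lower). For 16 electron carriers these counts were 8 and 8 (median 0.00), with 0 higher and 2 lower (Coq10b and Etfb). For 17 citrate cycle genes they were 8 and 9 (median -0.01), with 2 higher and 1 lower (Cs and Dlat higher; Fh1 lower). Mitochondrial ribosomal proteins, which translate the mitochondrial messages, had 28 of 74 above 0 (median -0.03; 2 higher and 8 lower), and cytosolic ribosomal proteins had 62 of 79 above 0 (median 0.05; 3 higher and 0 lower). All of these shares are to be read beside 4.65% higher and 5.04% lower over all tested genes. Genes named here for a small unadjusted p were picked by it, and 0 of them passed the adjusted threshold.

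**Figure D5:**
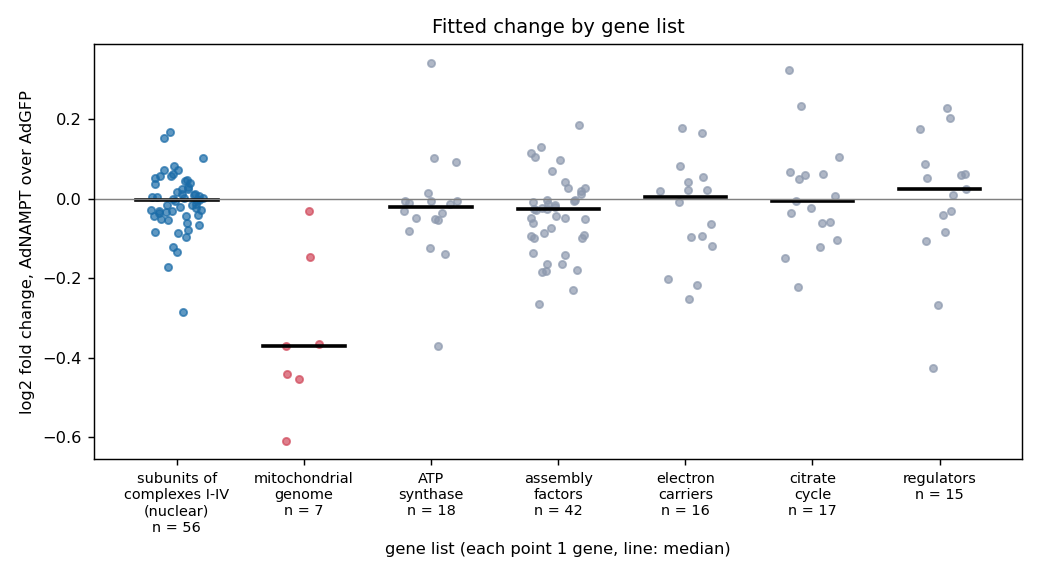
Fitted log2 fold change of AdNAMPT over AdGFP for the tested genes of each list, 1 point per gene, with the median as a line. The 56 nuclear subunits centre on 0 (median -0.003) and the 7 counted genes of the mitochondrial genome lie below it (median -0.37).

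Regulators of respiratory genes did not pass the test in either direction. Ppargc1a, the coactivator PGC-1α, was at 18.8, 16.6, 20.4 and 15.0 scaled CPM in AdGFP and at 21.5, 15.8, 12.7 and 13.6 in AdNAMPT, with AdNAMPT replicate 1 the highest library of all (log2 fold change -0.27, SE 0.14; limma adjusted p 0.583). Nrf1, the nuclear respiratory factor, was at 9.82, 9.35, 9.24 and 8.47 and at 12.9, 10.4, 10.4 and 10.3. Its groups did not overlap, which held for 2.09% of all tested genes in that direction, and its log2 fold change of 0.20 (SE 0.10) had a limma adjusted p of 0.545. Esrra, the receptor ERRα, was at 38.2, 31.97, 40.2 and 36.3 and at 57.2, 41.1, 42.4 and 36.8, with AdNAMPT replicate 1 far above the others (log2 fold change 0.17, SE 0.10; limma adjusted p 0.641).

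Gabpa, the DNA-binding part of GABP, was at 46.2, 57.5, 44.9 and 48.6 and at 46.6, 50.3, 50.1 and 52.3 (log2 fold change 0.06, SE 0.08; limma adjusted p 0.859). Tfam, which packages and transcribes mitochondrial DNA, was at 56.3, 57.3, 57.2 and 57.3 and at 55.6, 61.1, 60.4 and 58.0 (log2 fold change 0.06, SE 0.06; limma adjusted p 0.787). In both the groups overlapped. Of the 15 listed regulators 9 lay above 0 and 6 below, and 1 (Esrrg, log2 fold change -0.43, SE 0.16; limma adjusted p 0.465) had an unadjusted p under 0.05.

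Markers of other liver cells were read beside these values. All 6 Kupffer cell markers lay below 0 in AdNAMPT (median log2 fold change -0.44), with 3 at an unadjusted p under 0.05 and 0 called by limma (1, Vsig4, by edgeR's exact test and by DESeq2), and their summed level was 220.1 to 281 scaled CPM in AdGFP and 149 to 254 in AdNAMPT. Markers of the other types had medians of -0.11 for hepatocytes (2 of 8 above 0), 0.11 for sinusoidal endothelium (4 of 6), -0.05 for stellate cells (2 of 6) and 0.04 for cholangiocytes (3 of 5). Those of T and NK cells and of the pancreas were under the filter, and of the brown fat and muscle markers Cox7a1 alone passed it. The part of cell composition in the members' values was not tested.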

How the data were processed

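RNA was sequenced from 8 db/db livers as single 50-base reads. The authors aligned reads to GRCm38 (Ensembl release 76) with STAR, version 2.4.0b per the submitters' processing notes, and assigned reads with a single alignment to genes with featureCounts 1.4.5. The deposited counts are raw reads per gene. The deposited CPM are counts scaled to the library total, and the deposited RPKM are those CPM per kilobase of exon. Symbols came from GENCODE M21, which matched 40340 of the 41388 features and all members.

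Following the study's methods, 355 ribosomal RNA features and genes not above 1 CPM in at least 3 libraries were left out, leaving 12270. Counts were scaled by TMM and fitted with limma's voomWithQualityWeights and eBayes (limma 3.58.1, edgeR 4.0.16, R 4.3.3), with group as the only term and Benjamini-Hochberg adjustment over all tested genes. Folds are AdNAMPT over AdGFP with limma's 95% confidence intervals. The p-values measure the spread between mice. Replicates of a group differed by more than sampling noise and were kept separate. Alternatives used DESeq2 1.42.0 as well as edgeR. On simulated counts for AdNAMPT against AdGFP, 98.0% of 198 genes changed 3-fold among 12156 were recovered, with 13 false calls. Recovery of smaller changes, such as those estimated for the members, was not simulated, so this share does not apply to them. Depths of 12006713 to 19879814 put 3 counts at 0.250 to 0.151 CPM, for counting error only. Python 3.11.15 and pandas 2.3.3 were used for summaries.

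The member rule uses gene names only, but the member genes and lists were chosen with earlier results of these data known. Values per library are given for the 6 members with the smallest p in each direction, the highest and lowest per length in each complex, 9 fixed subunits (7 core subunits, Cox4i1 and Cox5a), 5 regulators and members with a library apart.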

Additional observations from a re-analysis of the deposited data

Results flagged for a closer look

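In groups of 4, a library was taken as apart when its gap to the nearest other library, divided by the group's range, exceeded Dixon's critical value. Over 66 values in both groups (132 groups) 10 were, and chance alone gives about 1 in 20, or 6.6. All values are scaled CPM. AdGFP replicate 3 was high for Ndufa1 (121, others 104 to 107), Ndufb8 (230.4, others 191 to 197) and the summed complex IV (2743, others 2508 to 2538). AdNAMPT replicate 4 was low for Ndufb5 (90.5, others 110.5 to 114), Ndufb9 (329.7, others 381 to 388) and the summed complex III (2042, others 2192 to 2212). AdNAMPT replicate 1 was low for Sdhc (257, others 292 to 298) and high for Nrf1 (12.9, others 10.3 to 10.4). AdNAMPT replicate 3 was low for Cox8a (339, others 366 to 368). AdGFP replicate 1 was low for Tfam (56.3, others 57.2 to 57.3), a gap of under 1 scaled CPM.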

How the results depend on the processing

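No member was called at an adjusted p of 0.05 by any test, scaling, filter, correction or left-out library, nor at 0.1 or 0.01, and the smallest adjusted p of any member was 0.280. Over all genes, 65 were called by edgeR's exact test and 75 by the DESeq2 Wald test, against 34. The count of members at an unadjusted p under 0.05, 1 as reported, was 0 by edgeR's quasi-likelihood and exact tests, DESeq2, voom with equal weights, upper-quartile factors, nuclear protein-coding scaling, thinned counts, the length correction and the replicate block with or without that correction, 3 with library size only and 2 with the GC correction. Leaving out each library gave 0 to 1 such members (0 without AdGFP replicate 2, AdGFP replicate 3 or AdNAMPT replicate 2; Ndufb11 in place of Cyc1 without AdGFP replicate 4 or AdNAMPT replicate 3; Ndufa1, higher, without AdNAMPT replicate 4). It gave 0 to 3 without overlap between groups, against 0: 3 lower without AdGFP replicate 2, Uqcrc1 (higher) and Ndufb11 (lower) without AdGFP replicate 4, Cyc1 (lower) without AdNAMPT replicate 1, Cox8a (higher) without AdNAMPT replicate 3, and Ndufa1 and Cox4i1 (higher) without AdNAMPT replicate 4. Over all tested genes, 3.5% to 4.35% were higher and 3.82% to 5.16% lower without overlap when a library was left out. Deposited CPM gave 3. Replicate numbers were not shown to pair the mice. Same-numbered libraries deviated with correlations of 0.22, -0.04, 0.21 and 0.01, against -0.30 to 0.25 for libraries of different numbers. The replicate block called 41 genes and 0 members.

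Leaving out each library moved the median log2 fold change of the members between -0.02 and 0.02, of complex I between -0.03 and 0.03 (both above 0 without AdGFP replicate 3 or AdNAMPT replicate 4), of complex II between -0.06 and 0.01 (above 0 without AdGFP replicate 4), of complex III between -0.01 and 0.01 and of complex IV between -0.008 and 0.09. Library size only moved the medians with that of all genes (0.09): to 0.081 for the members, 0.067 for complex I, 0.058 for complex II, 0.091 for complex III, 0.12 for complex IV, 0.071 for other subunits, 0.061 for the ATP synthase, 0.057 for assembly factors, 0.088 for electron carriers, 0.077 for the citrate cycle, 0.11 for regulators, 0.049 for mitochondrial and 0.13 for cytosolic ribosomal proteins. The summed level then differed by 7.11%, and by 5.01% as a share of nuclear protein-coding counts. The principal transcript length and the mitochondrial list without each library (median log2 fold change -0.48 to -0.26) were chosen after seeing the data. Replicates of a group differed by at least 12.5 times counting noise (chi-square per degree of freedom over genes). Ndufs5 had 6 to 18 reads per library, and whether depth or reads shared with its copy set that number was not tested.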
